A study of Rattus norvegicus with 16 samples.

Results

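Mesenchymal stromal cells (MSCs) from rat bone marrow were conditioned for 24 h with a medium that held lipopolysaccharide (LPS) and interferon gamma (IFNγ), and their transcripts were set against those of cells from the same animals kept in control medium. The comparison used the 4 Pol1 and 4 D10 libraries, 8 of the 16 RNA-seq libraries in the series, chosen by their medium label. The study included Pol1 to measure what the macrophage polarization medium by itself did to MSCs. The cells came from adult wild type female Sprague-Dawley rats, with 1 culture per animal and medium (rats 2, 3, 4 and 8), and had been sorted as CD29+/CD45- cells. By the labels, Pol1 was D10 with 100 ng/ml LPS and 20 ng/ml IFNγ, and D10 was DMEM with 10% fetal bovine serum and gentamycin. The study's methods, however, describe the polarization medium on an RPMI base with macrophage colony-stimulating factor and with another IFNγ concentration than the labels, so the base medium, that factor and the 2 added agents cannot be told apart in the differences below. The M0CM libraries of the same 4 rats, cells given the RPMI-based supernatant of unpolarized macrophages, are therefore set beside some results, and both comparisons share the D10 libraries. That supernatant also held what macrophages had left in it. In changes shared with M0CM, base medium and macrophage material cannot be told apart.

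The Pol1 libraries held 25097631 to 28075391 counts and the D10 libraries 25259670 to 31992709. Mitochondrially encoded genes took 1.39 to 1.68% of counts in Pol1 and 1.02 to 1.66% in D10. The stromal identity of the cells was checked on 10 MSC markers. Levels are counts per 1e6 counts in the tested genes, scaled between libraries (CPM). The markers summed to 4185 to 5629 CPM in Pol1 and 4892 to 8282 CPM in D10. Thy1, the surface antigen CD90, was at 1066 to 1308 CPM in Pol1 and 1138 to 1730 CPM in D10, and did not pass the test. Of the other MSC markers Itgb1, Nt5e, Cspg4 and Mcam were called lower, Pdgfra was called higher and Eng, Cd44, Pdgfrb and Lepr did not pass. Of 14 macrophage and monocyte markers found, Ptprc, Adgre1, Tyrobp and Cd163 had no count in any of the 8 libraries. The whole list summed to 2.63 to 3.44 CPM in Pol1 and 3.16 to 4.98 CPM in D10. Of the 9 tested, Lcp1 was called lower (-3.35, adjusted p = 1.10e-05) and 8 did not pass. In M0CM against D10, 5 of these 9 were called higher. The 4 granulocyte markers summed to at most 0.0811 CPM in Pol1 and 0.0940 CPM in D10, the 5 lymphocyte markers found to at most 0.0405 and 0.0751 CPM. Endothelial markers summed to 4.90 to 10.0 CPM in Pol1 and 2.38 to 9.95 CPM in D10, with no count of Emcn. Vwf, an endothelial clotting protein, had 1.78, 0.970, 2.29 and 2.31 CPM in Pol1, against 1.004, 0.751, 0.345 and 0.445 CPM in D10 and was called higher with overlapping groups (1.56, adjusted p = 0.00313), and Tek did not pass (0.16, adjusted p = 0.693). The part of these cells in the results was not tested.

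LPS is sensed by a receptor of Tlr4 and Ly96 aided by Cd14. The adaptors Myd88 and Ticam1 pass the signal on to kinases that free NF-kB from its inhibitors and activate interferon regulatory factors. IFNγ binds Ifngr1 and Ifngr2, whose kinases Jak1 and Jak2 activate transcription factors that bind GAS elements, and the factors these induce, Irf1 among them, act on ISRE elements of a second set of genes for antigen presentation, cell-autonomous defence and leukocyte attraction. In MSCs, IFNγ is known for inducing the enzymes and ligands with which these cells restrain T cells.

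Of the 26689 genes listed, 13556 had at least 10 counts in at least 4 of the 16 libraries and were tested with edgeR's quasi-likelihood test, with the rat as a block. At a threshold of 0.05 on the adjusted p, 2203 genes were called higher in Pol1 (16.3% of those tested) and 2192 lower (16.2%). The rises reached further than the falls, with 253 genes up and 47 down by at least 8-fold, and 118 up and 2 down by at least 32-fold. Of the called genes, 2149 of the 2203 were higher in each of the 4 rats and 2125 of the 2192 lower in each. Taken over the 13556 genes, log2 fold changes had a median of -0.01. Without the rat as a block, 1431 genes were called higher and 1097 lower. In M0CM against D10, 107 genes were higher (0.789%) and 42 lower (0.310%). In Pol1 against M0CM 1823 of the 13556 were higher (13.4%) and 1768 lower. In bulk RNA a smaller share of cells with a transcript and less of it per cell cannot be told apart.

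Gene lists for pathways of this tissue and treatment were counted against these shares. Over all 37 lists, 304 of 796 tested members were higher in Pol1 and 162 lower. A list with near 16.3% of its members higher, or near 16.2% lower, shows no more than all genes did. Below, the 4 values of a medium are given in CPM in the order rat 2, 3, 4 and 8, and p-values are adjusted over the 13556 genes. A fold change is log2 of Pol1 over D10. The value after its ± is an approximate standard error, the size of the fold change divided by the square root of edgeR's F statistic.

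**Figure D1:**
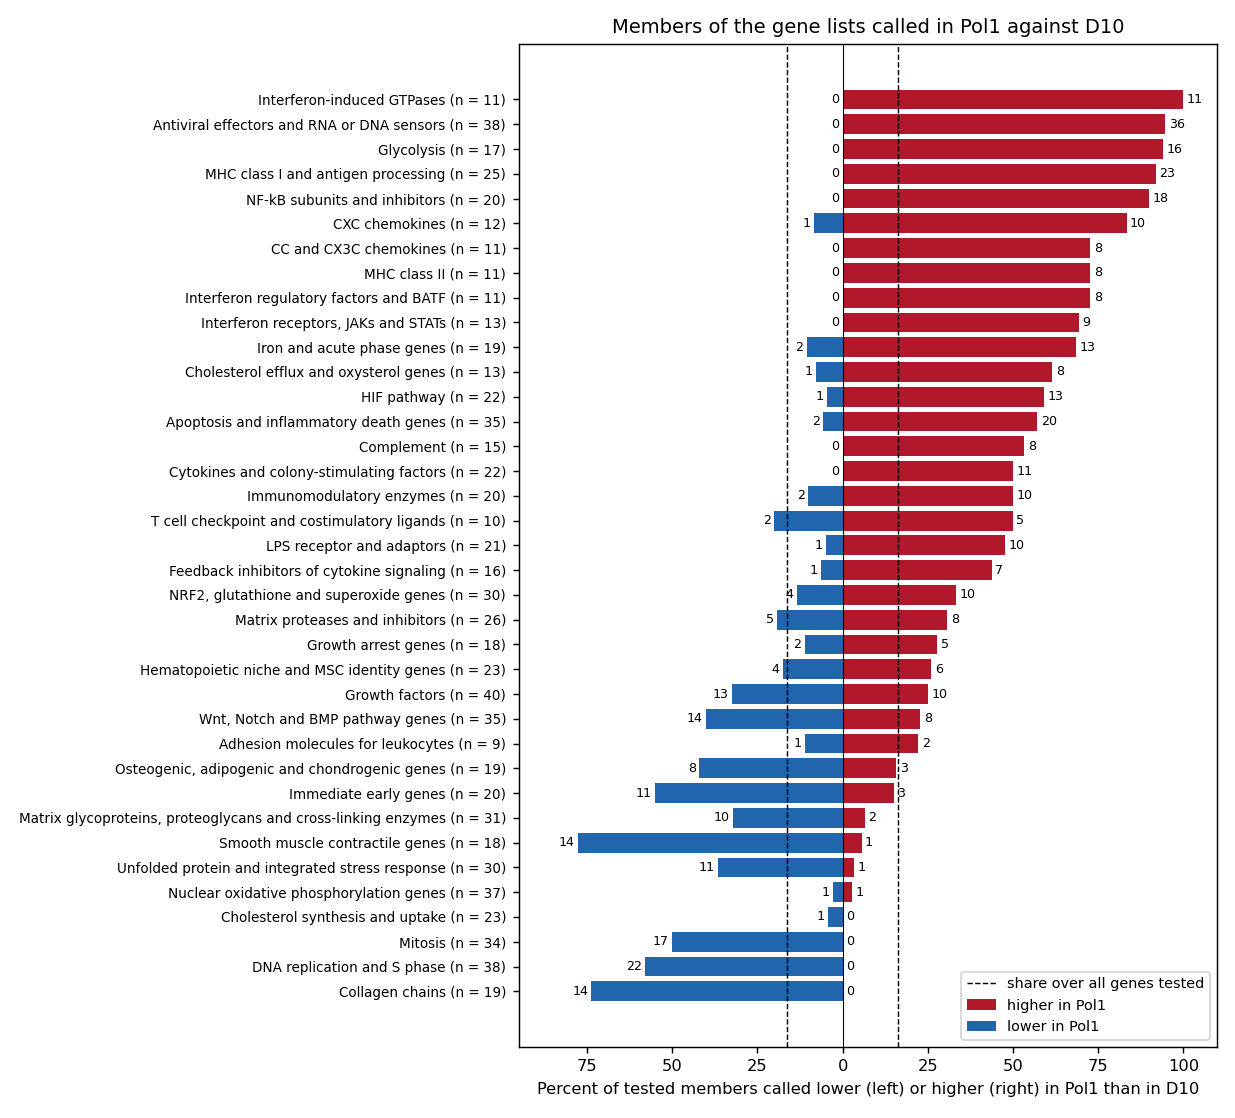
Percent of the tested members of each of 37 gene lists called higher (right, red) or lower (left, blue) in Pol1 than in D10; numbers at the bars are counts of members, and dashed lines mark the shares over all 13556 genes tested (16.3% higher, 16.2% lower). All 11 interferon-induced GTPases were higher, whereas 14 of 18 contractile genes and 14 of 19 collagen chains were lower.

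The ligand-sensing receptor genes Tlr4 and Ifngr1 were called higher with fold changes of 0.99 and 0.46, against 3.50 for Stat2 downstream of interferon receptors. Tlr4 had 8.23, 36.8, 25.3 and 22.6 CPM in Pol1, against 5.02, 12.5, 12.2 and 14.4 CPM in D10 (0.99 ± 0.20, adjusted p = 0.00178). The groups overlapped, with rat 2 lowest in both media, and the call was lost without the rat as a block (adjusted p = 0.170). Ly96, named by the KEGG annotation alone, rose by 0.94 ± 0.20 (adjusted p = 0.00254), whereas Cd14 at 0.74 ± 0.32 did not pass the test (adjusted p = 0.0937). Tlr2, a receptor for bacterial lipoproteins, had 25.3, 103, 120 and 78.9 CPM in Pol1, against 1.80, 4.32, 3.38 and 1.59 CPM in D10 (4.81 ± 0.28, adjusted p = 1.18e-08). Every Pol1 library was thus above every D10 library. The adaptor Myd88 rose by 0.91 ± 0.11 (adjusted p = 1.67e-05). Irak3, a pseudokinase that restrains Toll-like receptor signalling, averaged 134 ± 56.9 CPM in Pol1 and 26.4 ± 6.25 CPM in D10 (SD, n = 4 each; 2.30 ± 0.17, adjusted p = 1.41e-07). Of 21 tested members of the LPS receptor and adaptor list, 10 were higher, 1 was lower (Tab2, a subunit of the TAK1 kinase complex, at -0.36 ± 0.07) and 10 did not pass the test.

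Ifngr1, the ligand-binding chain of the IFNγ receptor, had 59.7, 96.4, 60.3 and 57.2 CPM in Pol1, against 49.3, 50.5, 49.4 and 44.5 CPM in D10 (0.46 ± 0.15, adjusted p = 0.0323). The Pol1 library of rat 3 stood above the other 3, and the call was lost without that rat (adjusted p = 0.217), without rat 8 (adjusted p = 0.0903) and without the block (adjusted p = 0.149). The second chain Ifngr2 (0.16 ± 0.08, adjusted p = 0.168) and the kinase Jak1 (0.22 ± 0.09, adjusted p = 0.0668) did not pass the test, and Jak2, again named by KEGG alone, rose by 1.32 ± 0.17 (adjusted p = 3.55e-05). Stat2, a transcription factor of type I interferon signalling, had 507, 476, 451 and 416 CPM in Pol1, against 41.6, 47.9, 39.8 and 35.4 CPM in D10 (3.50 ± 0.10, adjusted p = 1.13e-11). The 2 groups lay far apart, with little spread in either. Among 13 tested genes for interferon receptors, JAKs and STATs, 9 were higher and none lower, with Stat3, the main effector of IL-6 family cytokines, at 1.29 ± 0.10.

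NF-kB subunits and their inhibitors mostly rose, with 18 of 20 tested members higher, none called lower and a median log2 fold change of 1.0. However, 1 member that was not called had every Pol1 library below every D10 library. Nfkb1, the p105/p50 subunit, had 107, 141, 101 and 88.2 CPM in Pol1, against 55.8, 58.4, 54.5 and 49.0 CPM in D10 (0.99 ± 0.08, adjusted p = 5.42e-07). Nfkbia, the inhibitor IkBα, had 21.6, 40.4, 39.96 and 26.0 CPM in Pol1, against 10.9, 10.2, 9.46 and 6.67 CPM in D10 (1.76 ± 0.17, adjusted p = 2.37e-06). Neither gene's groups overlapped. Other brakes on the pathway moved the same way, including the ubiquitin-editing enzyme Tnfaip3 (1.35 ± 0.28, adjusted p = 0.00205), its partner Tnip1 (1.39 ± 0.14) and the ribonuclease Zc3h12a, which destroys cytokine mRNAs (2.43 ± 0.18, adjusted p = 1.88e-07). Rela, the p65 subunit, rose least, by 0.26 ± 0.08 (adjusted p = 0.0263), and missed the threshold without rat 3 (adjusted p = 0.143), rat 4 (adjusted p = 0.0976) or rat 8 (adjusted p = 0.131).

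Feedback inhibitors of cytokine signalling split by gene, with 7 of 16 tested members higher, 1 lower and 8 not called. Socs1, which blocks JAK kinases, had 103, 119, 80.3 and 82.6 CPM in Pol1, against 0.836, 0.676, 0.376 and 0.572 CPM in D10 (7.33 ± 0.23, adjusted p = 2.05e-11). Socs3, which restrains IL-6 family receptors, averaged 57.9 ± 22.6 CPM in Pol1 and 5.96 ± 2.71 CPM in D10 (3.28 ± 0.26, adjusted p = 3.42e-07). Usp18, which removes ISG15 from proteins and dampens type I interferon receptors, rose by 7.61 ± 0.30 (adjusted p = 2.93e-10). Socs2, an inhibitor best known from growth hormone signalling, went the other way, with 0.122, 0.108, 0.103 and 0.0355 CPM in Pol1, against 0.962, 1.77, 2.54 and 2.57 CPM in D10 (-4.37 ± 0.52, adjusted p = 2.13e-05). The rise of Socs1 and the fall of Socs2 thus stood side by side in all 4 rats.

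The 250 bases before the transcription start of 5 genes are shown here, since they hold the letters that STAT dimers (GAS, TTCNNNGAA), interferon regulatory factors (ISRE, GAAA and GAAA with 2 bases of any kind between them), NF-kB and serum response factor (CArG box) are known to bind. They are the RefSeq promoters of the rat assembly GRCr8, at chr10:38417685-38417934 for Irf1, chr10:5389324-5389573 for Socs1, chr14:15988816-15989065 for Cxcl10, chr20:4668544-4668793 for Tap1 and chr19:68784195-68784444 for Acta1. The first 3 are on the plus strand and the last 2 on the minus strand. Irf1, Socs1, Cxcl10 and Tap1 were among the called rises and Acta1 among the called falls. Capitals mark matches found on either strand.
Irf1: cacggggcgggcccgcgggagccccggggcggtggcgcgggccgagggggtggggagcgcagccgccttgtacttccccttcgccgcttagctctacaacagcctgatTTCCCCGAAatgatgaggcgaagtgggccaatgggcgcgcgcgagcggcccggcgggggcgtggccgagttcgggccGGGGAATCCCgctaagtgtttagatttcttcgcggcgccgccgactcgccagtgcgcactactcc
Socs1: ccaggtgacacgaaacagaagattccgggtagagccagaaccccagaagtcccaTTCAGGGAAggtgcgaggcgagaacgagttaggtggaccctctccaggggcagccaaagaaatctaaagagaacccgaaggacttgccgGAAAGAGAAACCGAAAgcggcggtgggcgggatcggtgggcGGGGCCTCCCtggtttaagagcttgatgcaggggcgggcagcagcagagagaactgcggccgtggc
Cxcl10: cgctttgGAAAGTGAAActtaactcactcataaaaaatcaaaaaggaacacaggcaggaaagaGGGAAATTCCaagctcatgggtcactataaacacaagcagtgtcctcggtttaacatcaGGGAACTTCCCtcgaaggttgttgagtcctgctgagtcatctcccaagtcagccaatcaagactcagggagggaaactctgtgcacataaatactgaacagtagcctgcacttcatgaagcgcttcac
Tap1: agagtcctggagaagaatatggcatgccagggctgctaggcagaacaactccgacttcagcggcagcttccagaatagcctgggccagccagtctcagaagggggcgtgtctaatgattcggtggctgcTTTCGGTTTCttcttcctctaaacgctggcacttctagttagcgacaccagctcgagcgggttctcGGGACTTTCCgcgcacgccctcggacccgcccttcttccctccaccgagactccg
Acta1: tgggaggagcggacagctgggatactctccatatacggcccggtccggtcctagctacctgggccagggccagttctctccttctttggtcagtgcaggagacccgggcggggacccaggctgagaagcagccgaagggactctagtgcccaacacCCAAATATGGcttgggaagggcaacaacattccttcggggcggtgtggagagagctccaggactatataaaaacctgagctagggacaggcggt

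The Irf1 window held a GAS match from base 142 to 134 before the start and an NF-kB match from 65 to 56. The Socs1 window held a GAS match from 196 to 188, overlapping ISRE matches from 107 to 98 and from 101 to 92, and an NF-kB match from 66 to 57. In Cxcl10 an ISRE match lay from 243 to 234 and NF-kB matches from 187 to 178, 128 to 119 and 127 to 118, the last pair overlapping. In Tap1 an ISRE match lay from 121 to 112, on the opposite strand, and an NF-kB match from 55 to 46, and in Acta1 a CArG box from 94 to 85. Over all 33469 promoter windows in the table, 7.67% held a GAS match, 3.41% an ISRE match, 6.33% an NF-kB match and 501 windows a CArG box. Of the 12207 named genes tested 9352 had a window, and 5.82, 2.59, 8.67 and 1.21% of these held the 4 motifs in the same order. Among the called rises of at least 8-fold, 175 of 239 named genes had a window, and 10.9, 24.0, 21.1 and 0.571% of these held the 4 motifs in the same order. Among the falls of at least 8-fold, 27 of 46 named genes had a window, and the shares were 3.70, 0.00, 3.70 and 7.41%. ISRE matches stood in 66.7% of the windows of the 9 GTPase genes that had one, 56.0% of 25 antiviral genes and 36.4% of 22 class I antigen genes, and CArG boxes in 23.1% of 13 immediate early genes and 13.3% of 15 contractile genes. These are matches of letters and were not tested as binding sites.

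Interferon regulatory factors and the BATF family carry the signal to the second set of genes, and 8 of the 11 tested were higher and none lower. Irf1 had 497, 522, 461 and 453 CPM in Pol1, against 10.6, 7.36, 6.17 and 5.02 CPM in D10 (6.10 ± 0.16, adjusted p = 3.67e-12). Irf8, a factor of myeloid cells and of IFNγ-treated tissue, had 61.6, 84.5, 48.0 and 89.9 CPM in Pol1, against 0.167, 0.676, 0.157 and 0.635 CPM in D10 (7.45 ± 0.27, adjusted p = 9.84e-11). Irf9, the DNA-binding partner of Stat2, averaged 51.9 ± 2.64 CPM in Pol1 and 12.1 ± 1.22 CPM in D10 (2.11 ± 0.09, adjusted p = 4.24e-10). All 3 factors had every Pol1 library above every D10 library. Batf2, a leucine zipper factor induced in IFNγ-treated macrophages, had 41.8, 38.4, 42.8 and 40.6 CPM in Pol1 and no count in D10, at least 1553-fold higher when the D10 sum is set to 3 counts.

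The interferon-induced GTPases, which attack vacuoles that hold microbes, were all higher, 11 of 11 tested, with a median log2 fold change of 8.00. Gbp2 had 3965, 3260, 3007 and 2634 CPM in Pol1, against 18.6, 9.88, 4.54 and 6.16 CPM in D10 (8.55 ± 0.32, adjusted p = 1.36e-10). By mean FPKM, a level per gene length, Gbp2 ranked 33 of the 26689 listed genes in Pol1 and 8830 in D10. Igtp, a GTPase of the IRG family, had 1129, 1082, 946 and 1069 CPM in Pol1, against 7.82, 6.35, 6.45 and 7.65 CPM in D10 (7.22 ± 0.14, adjusted p = 8.95e-13), and Ifi47 averaged 665 ± 77.8 CPM in Pol1 and 0.452 ± 0.343 CPM in D10. The rat 2 library stood apart for Gbp6, which had 0.608, 1157, 259 and 47.0 CPM in Pol1, against 0.418, 1.13, 0.157 and 0.191 CPM in D10 (9.30 ± 0.80, adjusted p = 9.14e-07), so that this gene's groups overlapped while those of Gbp2 and Igtp did not. Gbp1, named by KEGG alone, gave the largest fold change of any called gene, with 33112 counts over the 4 Pol1 libraries and 1 count over the D10 libraries. The ratio of these sums scaled for depth was 34325 (exact 95% interval 6160 to 1355808). Members of the Gbp family share sequence, and reads could be split between them.

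Antiviral effectors and nucleic acid sensors followed, with 36 of 38 tested members higher, none lower and a median of 4.44. Rsad2 (viperin), which makes a chain-terminating nucleotide, had 234, 270, 63.0 and 65.6 CPM in Pol1, against 0.335, 0.113, 0.0313 and 0 CPM in D10 (10.48 ± 0.31, adjusted p = 1.43e-11). Zbp1, a sensor of Z-form nucleic acids, had 29.7, 47.3, 38.2 and 31.7 CPM in Pol1 and 3 counts in all in D10, a ratio of 1403 (exact 95% interval 480 to 6807). Parp14, an ADP-ribosyltransferase, had 1866, 2181, 1897 and 1705 CPM in Pol1, against 56.7, 62.2, 38.9 and 44.4 CPM in D10 (5.26 ± 0.16, adjusted p = 1.67e-11). The Pol1 levels of Rsad2 differed between rats, with rats 2 and 3 highest, while those of Parp14 were alike. Isg15, a ubiquitin-like modifier, and Uba7, its activating enzyme, rose by 7.06 ± 0.28 and 7.17 ± 0.32, and Ifit1, which binds viral RNA caps, by 9.76 ± 0.43. Oas2 had 0.405, 0.826, 0.444 and 0.426 CPM in Pol1 and no count in D10, at least 20.0-fold higher.

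MHC class I genes and the machinery that feeds them rose together, with 23 of 25 tested members higher and a median of 3.16. The 2 members not called were Calr and Canx, general chaperones of the endoplasmic reticulum. B2m, the light chain of every class I molecule, had 1288, 1254, 1139 and 1242 CPM in Pol1, against 228, 162, 212 and 185 CPM in D10 (2.65 ± 0.12, adjusted p = 7.26e-10). Tap1, a subunit of the peptide transporter, had 859, 998, 878 and 986 CPM in Pol1, against 32.8, 30.0, 28.7 and 24.5 CPM in D10 (5.01 ± 0.14, adjusted p = 8.88e-12). The immunoproteasome subunit Psmb9 had 354, 388, 319 and 320 CPM in Pol1, against 5.44, 3.87, 2.60 and 2.89 CPM in D10 (6.59 ± 0.20, adjusted p = 1.67e-11). Each of these genes lay higher in every Pol1 library than in any D10 library. Its neighbour subunit Psmb8 averaged 359 ± 63.1 CPM in Pol1 and 14.4 ± 8.78 CPM in D10 (4.79 ± 0.21, adjusted p = 6.63e-10). Nlrc5, the transactivator of class I genes, had 81.7, 83.0, 89.4 and 83.9 CPM in Pol1, against 0.836, 0.488, 0.219 and 0.0318 CPM in D10 (7.89 ± 0.40, adjusted p = 3.10e-09). Ubd (FAT10), a ubiquitin-like protein that marks others for degradation, had 520, 553, 253 and 222 CPM in Pol1, against 0.167, 0.0751, 0.0626 and 0 CPM in D10 (12.33 ± 0.32, adjusted p = 3.44e-12). Rat RT1 class I genes are close copies of each other, and their single values are uncertain.

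MHC class II, as a rule kept to antigen-presenting cells, was higher over very low D10 levels, with 8 of 11 tested members higher and a median of 6.96. Ciita, the transactivator of these genes, had 112, 111, 66.6 and 50.6 CPM in Pol1, against 0.585, 0.826, 2.04 and 1.30 CPM in D10 (6.10 ± 0.47, adjusted p = 3.06e-07). Cd74, the invariant chain, had 169, 187, 72.1 and 60.7 CPM in Pol1, against 0.0836, 0.113, 0.564 and 0.286 CPM in D10 (8.61 ± 0.43, adjusted p = 2.93e-09). Rats 2 and 3 were higher than rats 4 and 8 for both genes in Pol1, and the reverse order held in D10. RT1-Da, a class II alpha chain, followed the same order in Pol1, with 61.3, 70.1, 15.1 and 17.7 CPM against 0.0418, 0, 0.0626 and 0.0318 CPM in D10 (9.96 ± 0.46, adjusted p = 1.07e-09). RT1-Bb had 5.39, 19.3, 2.43 and 1.71 CPM in Pol1 and RT1-Ba 1.34, 7.51, 0.615 and 0.426 CPM, with no count of either in D10, at least 272-fold and 94.0-fold higher. The 14 macrophage and monocyte markers found summed to 2.63 to 3.44 CPM in these Pol1 libraries, with Spi1 at 0.934 to 1.71 CPM. Their part in the class II values was not tested.

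**Figure D2:**
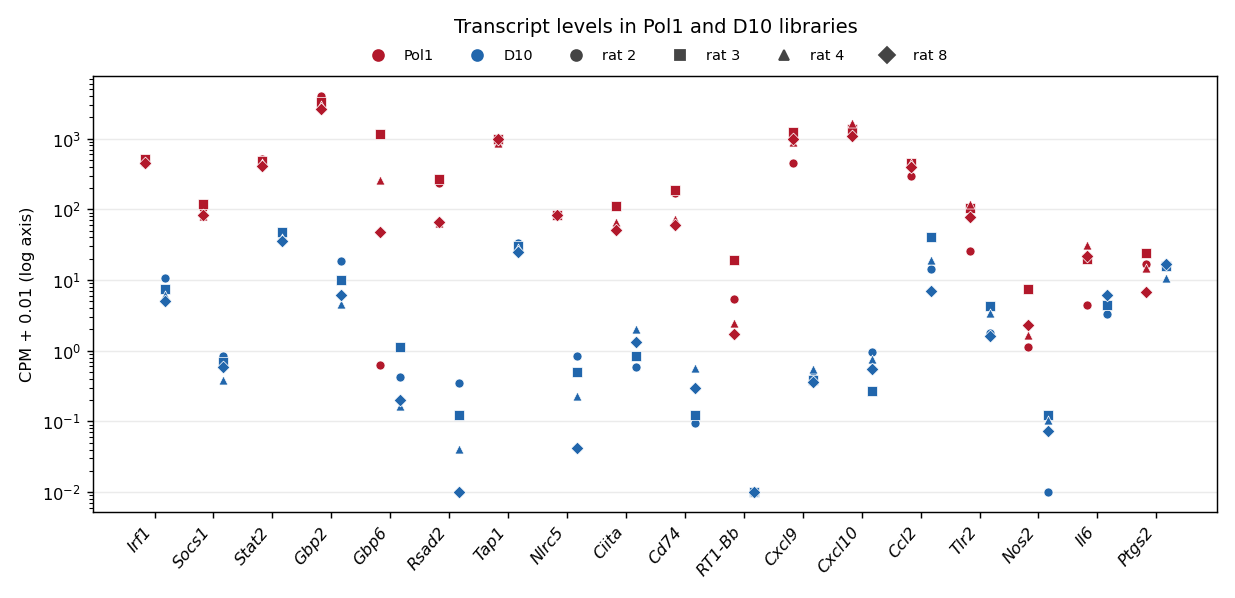
Level of 18 transcripts of the LPS and IFNγ response in each library, as CPM + 0.01 on a log axis; red points are Pol1, blue points D10, and the symbol gives the rat. For Cxcl10 the Pol1 libraries sat between 1100 and 1634 CPM, against at most 0.962 CPM in D10, whereas the points of Gbp6, Il6 and Ptgs2 overlapped between the media.

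Ligands that T cells read on these cells did not move one way, with 5 of 10 tested members higher and 2 lower. Without the rat as a block these counts were 2 and 1, and without rat 8 they were 3 and 1. Cd274 (PD-L1), which inhibits T cells, had 29.5, 45.5, 29.4 and 24.5 CPM in Pol1, against 0.251, 0.751, 0.532 and 0.953 CPM in D10 (5.65 ± 0.32, adjusted p = 9.30e-09). Cd40, the receptor for T cell help, rose by 2.15 ± 0.34, and the inhibitory ligand Vsir, the phagocytosis checkpoint Cd47 and Nectin2 rose by 1.02, 0.81 and 0.40. Without the block Cd40 (adjusted p = 0.0806), Vsir (adjusted p = 0.0937) and Nectin2 (adjusted p = 0.0844) were lost, as were Vsir without rat 3 (adjusted p = 0.117), rat 4 (adjusted p = 0.309) or rat 8 (adjusted p = 0.101) and Nectin2 without rat 8 (adjusted p = 0.118). Tnfsf18 (GITR ligand), a costimulator, had 5.80, 4.88, 7.65 and 17.7 CPM in Pol1, against 23.0, 43.8, 38.6 and 89.9 CPM in D10 (-2.42 ± 0.37, adjusted p = 1.99e-04), with no overlap. The other fall was Cd80, at -0.82 ± 0.26, which was lost without the block (adjusted p = 0.106), without rat 4 (adjusted p = 0.0842) and without rat 8 (adjusted p = 0.146).

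Chemokines that attract T cells through Cxcr3 were among the largest rises. Cxcl10 had 1114, 1375, 1634 and 1100 CPM in Pol1, against 0.962, 0.263, 0.752 and 0.540 CPM in D10 (11.02 ± 0.28, adjusted p = 3.44e-12). Cxcl9 had 453, 1253, 909 and 983 CPM in Pol1, against 0.418, 0.376, 0.532 and 0.349 CPM in D10 (11.01 ± 0.36, adjusted p = 1.98e-09), and Cxcl11 rose by 10.15 ± 0.24. By mean FPKM, Cxcl10 ranked 39 in Pol1 and 12042 in D10, and Cxcl9 ranked 66 and 12514. In M0CM Cxcl9 had no count and Cxcl10 averaged 0.125 CPM. Of 12 tested CXC chemokines 10 were higher and 1, Cxcl17, was lower. Without the block these counts were 7 and 0, and the fall of Cxcl17 was lost when any 1 rat was left out (adjusted p = 0.0592 to 0.165). Cxcl12, which holds hematopoietic cells in the marrow, had 545, 539, 295 and 162 CPM in Pol1, against 389, 268, 89.0 and 65.6 CPM in D10 (1.13 ± 0.18, adjusted p = 0.000260). It was higher in each rat but its groups overlapped, and the call was lost without the block (adjusted p = 0.372). It averaged 346 CPM in M0CM, against which Pol1 did not pass (0.34, adjusted p = 0.188).

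Of 11 tested CC and CX3C chemokines 8 were higher and none lower. Ccl2, the main attractant of monocytes, had 299, 448, 458 and 393 CPM in Pol1, against 14.3, 39.95, 19.1 and 6.89 CPM in D10 (4.48 ± 0.37, adjusted p = 5.79e-07). Its neighbour Ccl7 had 435, 605, 543 and 486 CPM in Pol1, against 8.40, 37.0, 13.1 and 4.10 CPM in D10 (5.39 ± 0.52, adjusted p = 2.69e-06). Rat 3 was highest in D10 for both, and Pol1 and D10 did not overlap. Cx3cl1 (fractalkine) averaged 152 ± 114 CPM in Pol1 and 10.4 ± 14.3 CPM in D10 (4.46 ± 0.60, adjusted p = 6.22e-05). Ccl5, Ccl19 and Ccl22, which attract lymphocytes and dendritic cells, stayed below 3 CPM in Pol1 and had no count in D10, at least 60.8-fold, 31.4-fold and 17.6-fold higher.

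Among 22 tested cytokines and colony-stimulating factors, 11 were higher and none lower. Il6 had 4.42, 19.9, 31.6 and 21.5 CPM in Pol1, against 3.26, 4.43, 6.48 and 6.16 CPM in D10 (1.81 ± 0.34, adjusted p = 0.000915), and rat 2 had the smallest difference. It averaged 10.9 CPM in M0CM, against which Pol1 did not pass (0.66, adjusted p = 0.1545). Csf1, the macrophage growth factor, had 1054, 1294, 1247 and 1012 CPM in Pol1, against 386, 590, 360 and 236 CPM in D10 (1.62 ± 0.13, adjusted p = 5.38e-07). Tnfsf10 (TRAIL), a ligand that can start cell death, had 18.8, 28.9, 9.19 and 14.1 CPM in Pol1 and no count in D10, at least 669-fold higher. Tnf itself was called higher (adjusted p = 0.00397), at least 7.60-fold, but stayed near the floor. It had 0, 0.287, 0.239 and 0.249 CPM in Pol1 and no count in D10. The adhesion list had 9 tested members, with Vcam1 and Icam1 higher and the tetraspanin Cd9 lower. Over all genes tested 16.3% were higher and 16.2% lower. Vcam1, which binds leukocyte integrins, had 217, 355, 144 and 66.4 CPM in Pol1, against 11.9, 10.3, 1.28 and 0.476 CPM in D10 (5.65 ± 0.46, adjusted p = 4.33e-07). Icam1 rose by 1.29 ± 0.21 (adjusted p = 0.000344), with overlapping groups. Cd9 fell by 0.67 and lost the call without rat 2 (adjusted p = 0.0723) or rat 8 (adjusted p = 0.0725).

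In the complement list 8 of 15 tested members were higher and none lower. C4b had 46.0, 120, 80.9 and 56.1 CPM in Pol1, against 0.418, 0.150, 0.125 and 0.0635 CPM in D10 (8.67 ± 0.40, adjusted p = 1.18e-09). The protease C1s had 621, 852, 733 and 497 CPM in Pol1, against 32.5, 63.2, 43.2 and 6.51 CPM in D10 (4.56 ± 0.39, adjusted p = 7.96e-07). Serping1, the inhibitor of that protease, had 221, 369, 436 and 243 CPM in Pol1, against 6.73, 12.5, 23.4 and 7.81 CPM in D10 (4.73 ± 0.29, adjusted p = 2.42e-08). The Pol1 and D10 groups of these 3 genes did not overlap.

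Enzymes by which MSCs are known to act on immune cells split between those that rose and those that did not, with 10 of 20 tested members higher and 2 lower. Ido1, which breaks down tryptophan, had 21.4, 7.002, 4.13 and 6.29 CPM in Pol1, and 1 count in all in D10, a ratio of 1059 (exact 95% interval 190 to 41886). Acod1, which makes itaconate, had 20.3, 81.0, 37.0 and 47.2 CPM in Pol1, and 2 counts in D10, a ratio of 2679 (exact 95% interval 741 to 22129). Nos2, inducible nitric oxide synthase, named by KEGG alone, had 1.14, 7.43, 1.67 and 2.31 CPM in Pol1, against 0, 0.113, 0.0940 and 0.0635 CPM in D10 (5.28 ± 0.66, adjusted p = 1.25e-04). Ass1, which renews arginine from citrulline, had 16.3, 49.9, 7.72 and 24.1 CPM in Pol1, against 0.209, 0.150, 0.125 and 0.0635 CPM in D10 (7.33 ± 0.60, adjusted p = 4.99e-07). Every Pol1 library was above every D10 library for these enzymes, with rat 2 highest for Ido1 and rat 3 for the others. Ptgs2 (COX-2), the first enzyme of prostaglandin synthesis, had 16.98, 24.1, 14.9 and 6.75 CPM in Pol1, against 15.2, 15.6, 10.6 and 16.99 CPM in D10 (0.05 ± 0.47, adjusted p = 0.952), whereas Ptges, the synthase of prostaglandin E, rose by 2.93 ± 0.49 (adjusted p = 0.000410). The falls were the adenosine-producing ectoenzymes Entpd1 (-0.84 ± 0.29) and Nt5e (-0.78 ± 0.21), both lost without the block (adjusted p = 0.423 and 0.243). Entpd1 was also lost without rat 2 (adjusted p = 0.184), rat 3 (adjusted p = 0.106) or rat 4 (adjusted p = 0.155), and Nt5e without rat 4 (adjusted p = 0.0558).

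Growth factors moved in both directions, with 10 of 40 tested members higher and 13 lower, and without the rat as a block 7 and 4. Hgf, a mitogen of epithelia and a factor of MSC-driven repair, had 18.7, 51.1, 9.94 and 6.47 CPM in Pol1, against 4.06, 6.12, 0.940 and 2.00 CPM in D10 (2.63 ± 0.29, adjusted p = 9.76e-06). Vegfa, which drives vessel growth, had 306, 344, 297 and 409 CPM in Pol1, against 169, 180, 183 and 317 CPM in D10 (0.71 ± 0.14, adjusted p = 0.00126), higher in each rat. Gdnf, a factor for neurons, did not pass the test, at 2.49 ± 0.468 CPM in Pol1 and 1.71 ± 0.708 CPM in D10 (0.59 ± 0.28, adjusted p = 0.128). Tgfb3, a cytokine of matrix production, had 85.5, 73.3, 139 and 270 CPM in Pol1, against 453, 980, 1899 and 1927 CPM in D10 (-3.18 ± 0.27, adjusted p = 7.01e-07), and Tgfb2 fell by 1.46 ± 0.18 (adjusted p = 2.33e-05). Hbegf (-1.49 ± 0.24) and Bdnf (-1.02 ± 0.21) were lower in each rat, and both calls were lost without the block (adjusted p = 0.0966 and 0.321).

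Genes that mark MSCs and their niche for hematopoietic cells gave 6 rises and 4 falls among 23 tested, but 1 and 2 without the block. Over all genes tested 16.3% were higher and 16.2% lower, so the falls stood close to that share. Without the block the counts over all 13556 genes were 1431 and 1097. Pdgfra, a receptor used to sort MSCs, had 419, 1171, 543 and 285 CPM in Pol1, against 258, 450, 210 and 147 CPM in D10 (1.12 ± 0.15, adjusted p = 5.05e-05). Kitlg (stem cell factor) had 121, 53.5, 70.1 and 76.0 CPM in Pol1, against 71.3, 30.3, 23.9 and 36.6 CPM in D10 (1.05 ± 0.12, adjusted p = 1.37e-05). Both were higher in each rat while the groups overlapped, and neither passed without the block (adjusted p = 0.0987 and 0.117). Pdgfra averaged 604 CPM in Pol1, 443 CPM in M0CM and 266 CPM in D10. It was called higher in M0CM against D10 (0.72, adjusted p = 0.0317) and did not pass in Pol1 against M0CM (0.40, adjusted p = 0.0583), where Kitlg did (0.95, adjusted p = 4.31e-05). Mcam (CD146), a marker of perivascular stroma, had 6.20, 2.19, 13.3 and 28.8 CPM in Pol1, against 49.8, 38.1, 133 and 168 CPM in D10 (-3.20 ± 0.22, adjusted p = 7.83e-08). Cspg4 (NG2), a pericyte marker, fell by 2.07 ± 0.25 (adjusted p = 2.34e-05 with the block and 0.0684 without). Itgb1 (CD29), on which the cells had been sorted, fell by 0.81 ± 0.10 (adjusted p = 2.15e-05).

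Genes of apoptosis and inflammatory death were mostly higher, 20 of 35 tested against 2 lower. Casp1, the inflammasome protease, had 51.1, 43.6, 55.2 and 46.5 CPM in Pol1, against 4.39, 1.65, 2.72 and 1.27 CPM in D10 (4.40 ± 0.24, adjusted p = 6.70e-09). Gsdmd, the pore-forming protein it cuts, had 177, 252, 210 and 189 CPM in Pol1, against 56.6, 60.5, 59.9 and 40.9 CPM in D10 (1.92 ± 0.13, adjusted p = 5.94e-08). Mlkl, which ruptures the membrane in necroptosis, had 81.6, 101, 90.0 and 78.6 CPM in Pol1, against 13.4, 15.4, 11.8 and 9.81 CPM in D10 (2.81 ± 0.12, adjusted p = 3.84e-10). The groups of all 3 genes lay apart. Nlrp3, an inflammasome sensor, did not pass (-0.42 ± 0.19, adjusted p = 0.115), except without rat 8 (adjusted p = 0.0466). The death receptor Fas (0.22 ± 0.15, adjusted p = 0.291) and the survival factor Bcl2 (-0.69 ± 0.36, adjusted p = 0.171) did not pass either. The falls were Pmaip1 (NOXA) at -1.35 ± 0.12 and Bcl2l2 at -0.44.

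The smooth muscle contractile programme, which cultured MSCs carry, was lower, with 14 of 18 tested members down and 1 up, and a median of -1.16. Cnn1 (calponin) had 37.5, 24.8, 36.2 and 48.8 CPM in Pol1, against 209, 301, 299 and 269 CPM in D10 (-2.90 ± 0.28, adjusted p = 2.88e-06). Actg2, a smooth muscle actin, had 41.5, 7.94, 25.9 and 56.6 CPM in Pol1, against 302, 90.6, 249 and 367 CPM in D10 (-3.08 ± 0.13, adjusted p = 6.01e-10). The factor that switches these genes on fell too, since Srf had 47.9, 35.1, 43.2 and 53.3 CPM in Pol1, against 89.7, 119, 139 and 130 CPM in D10 (-1.40 ± 0.13, adjusted p = 1.73e-06). Its partner Myocd fell by 2.13 ± 0.26 (adjusted p = 2.58e-05 with the block and 0.0955 without). Myh11, the smooth muscle myosin, named by KEGG alone and so not counted in the list, had 12.7, 16.3, 63.7 and 60.2 CPM in Pol1, against 123, 653, 1030 and 590 CPM in D10 (-3.90 ± 0.43, adjusted p = 1.10e-05). The one rise was Des (desmin), at 1.97 ± 0.17 (adjusted p = 9.86e-07), which was lost without the block (adjusted p = 0.106).

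**Figure D3:**
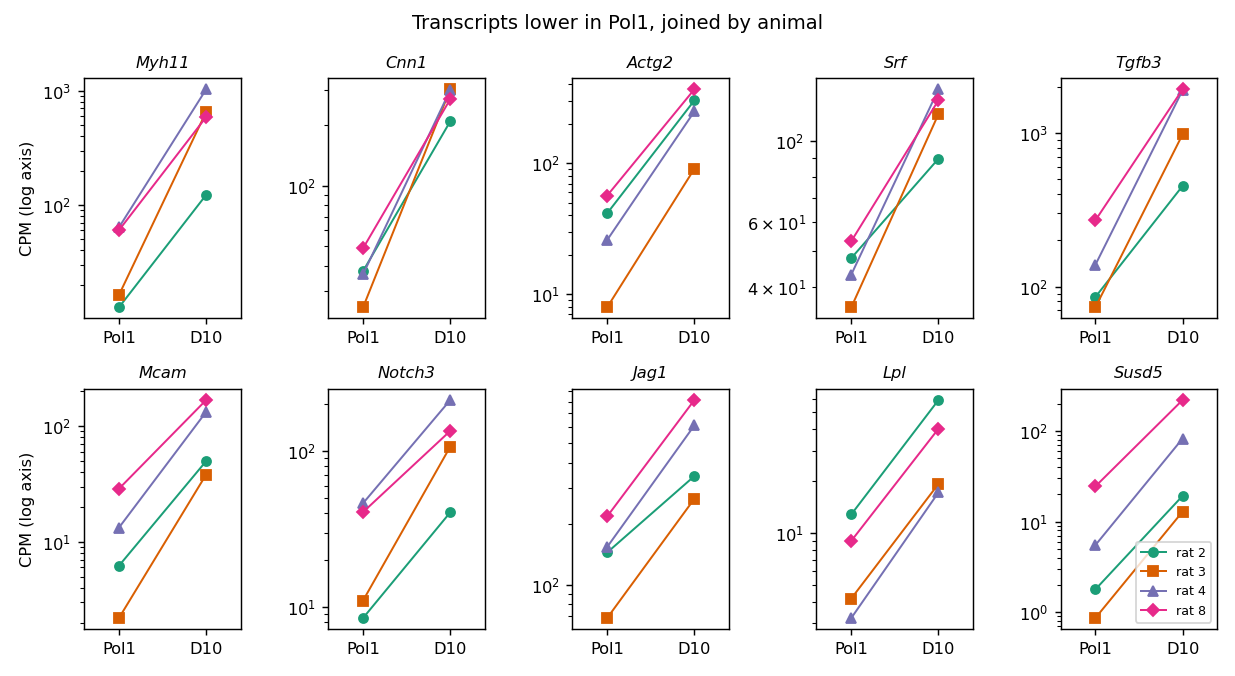
Level of 10 transcripts called lower in Pol1, in CPM on a log axis, with Pol1 at the left and D10 at the right of each panel and a line joining the 2 libraries of each rat. Every line slopes upward to D10, while the height of the lines differs between rats, as for Susd5, which had 0.862 to 24.5 CPM in Pol1 and 12.9 to 220 CPM in D10.

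Of 19 tested collagen chains 14 were lower and none higher, with a median of -0.51, and without the block 3 passed. Against M0CM 6 of the 19 were lower, beside 1768 of all 13556 genes tested. Col5a3 had 205, 108, 210 and 328 CPM in Pol1, against 622, 471, 664 and 880 CPM in D10 (-1.72 ± 0.13, adjusted p = 2.04e-07), and Col11a1 fell by 1.49 ± 0.22 (adjusted p = 1.56e-04 with the block and 0.0653 without). Col1a1, the gene with the highest mean FPKM in both media, had 75835, 58567, 49249 and 52657 CPM in Pol1, against 96490, 86359, 74734 and 60248 CPM in D10 (-0.43 ± 0.15, adjusted p = 0.0344). This call was lost without the block (adjusted p = 0.314) and without rat 3 (adjusted p = 0.119), rat 4 (adjusted p = 0.147) or rat 8 (adjusted p = 0.0813). Among 31 tested matrix glycoproteins, proteoglycans and cross-linking enzymes, 10 were lower and 2 higher, and without the block 4 and 0. Without rat 8, 1 was higher. Eln (elastin) had 2.92, 2.23, 36.9 and 22.5 CPM in Pol1, against 20.8, 27.1, 360 and 142 CPM in D10 (-3.08 ± 0.40, adjusted p = 4.64e-05, and adjusted p = 0.0786 without the block). The 2 rises were Prelp (0.87) and Thbs2 (0.75), which did not pass without the block (adjusted p = 0.469 and 0.382), and Thbs2 did not without rat 8 (adjusted p = 0.0648).

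Matrix proteases and their inhibitors gave 8 rises and 5 falls among 26 tested, and 5 and 1 without the block. Over all genes tested 16.3% were higher and 16.2% lower, so the falls were near that share. Mmp3 (stromelysin) had 22.0, 67.2, 62.3 and 105 CPM in Pol1, against 4.81, 4.13, 10.2 and 5.18 CPM in D10 (3.35 ± 0.44, adjusted p = 4.85e-05). Mmp9, a gelatinase, had 18.9, 42.6, 11.1 and 13.4 CPM in Pol1, against 1.67, 2.52, 1.25 and 0.984 CPM in D10 (3.76 ± 0.56, adjusted p = 1.52e-04). Both matrix-cleaving enzymes were higher in every Pol1 library than in any D10 library. Among the falls were Timp4 (-2.11), Plau (-0.93), Plaur (-0.82) and Ctsk (-0.39). Without the block none of these 4 passed (adjusted p = 0.185 to 0.495). Without rat 4, 3 members of the list were lower, since Plau (adjusted p = 0.0604, and 0.0577 without rat 3) and Ctsk (adjusted p = 0.109) were lost, and Ctsk was also lost without rat 2 (adjusted p = 0.0619) or rat 8 (adjusted p = 0.106).

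Of 35 tested genes of the Wnt, Notch and BMP pathways 8 were higher and 14 lower, and 5 and 9 without the block. Notch3, the Notch receptor of mural cells, had 8.51, 11.02, 46.4 and 40.7 CPM in Pol1, against 40.6, 107, 213 and 135 CPM in D10 (-2.32 ± 0.36, adjusted p = 2.27e-04). The ligand Jag1 had 144, 68.4, 153 and 217 CPM in Pol1, against 343, 265, 611 and 815 CPM in D10 (-1.75 ± 0.33, adjusted p = 0.00109). The Notch target Heyl had 0.284, 0.216, 0.342 and 0.391 CPM in Pol1, against 2.97, 2.29, 2.51 and 3.02 CPM in D10 (-3.19 ± 0.37, adjusted p = 1.53e-05), and Hes1, another target, fell by 1.87 ± 0.28 (adjusted p = 1.75e-04). The receptor Notch1 rose by 1.41. The ligand Wnt4 had 36.2, 59.8, 54.8 and 27.1 CPM in Pol1, against 7.69, 11.6, 5.86 and 4.83 CPM in D10 (2.57 ± 0.16, adjusted p = 3.22e-08). Sfrp1, a Wnt antagonist, rose by 1.78 ± 0.35, which was lost without the block (adjusted p = 0.450). It averaged 54.4 CPM in Pol1, 62.7 CPM in M0CM and 18.5 CPM in D10, and was called higher in M0CM against D10 (1.72, adjusted p = 0.0337) but did not pass in Pol1 against M0CM (0.06, adjusted p = 0.921).

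Cell cycle genes were called lower mainly in the test with the rat as a block. Of 38 tested genes of DNA replication and S phase 22 were lower and none higher, with a median of -0.56, but 2 were lower without the block, and 12, 5 and 14 without rat 2, rat 3 and rat 8. Of 34 tested mitosis genes 17 were lower and none higher, with a median of -0.78, but none was without the block, and 11 and 3 were without rat 2 and rat 3. Mki67, a marker of cycling cells, had 20.6, 13.9, 40.1 and 81.8 CPM in Pol1, against 47.6, 73.7, 71.0 and 124 CPM in D10 (-1.23 ± 0.35, adjusted p = 0.0152). The groups overlapped, with rat 8 highest in both media, and the call was lost without the block (adjusted p = 0.239) or without rat 3 (adjusted p = 0.118). Mcm5, a subunit of the replicative helicase, had 8.43, 6.21, 14.8 and 22.0 CPM in Pol1, against 21.2, 24.9, 29.1 and 39.2 CPM in D10 (-1.31 ± 0.38, adjusted p = 0.0185, with adjusted p = 0.196 without the block, 0.0548 without rat 2 and 0.116 without rat 3). In M0CM against D10 the replication list had a median of -0.55, close to that in Pol1, with no member called, and the mitosis list one of -0.25, with no member called. Against M0CM 2 of 38 replication and 7 of 34 mitosis genes were lower in Pol1, beside 1768 of all 13556 genes tested. Of 18 tested growth arrest genes 5 were higher and 2 lower, but 2 and 0 without the block, and 1 was lower without rat 2 or rat 3 and none without rat 4 or rat 8. Cdkn1a (p21), an inhibitor of cyclin-dependent kinases, had 672, 510, 354 and 344 CPM in Pol1, against 475, 277, 228 and 214 CPM in D10 (0.68 ± 0.08, adjusted p = 2.71e-05, and adjusted p = 0.194 without the block), and Btg1, an antiproliferative factor, rose by 1.59 ± 0.16 (adjusted p = 3.44e-06).

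Glycolysis genes were higher as a group, 16 of 17 tested with a median of 1.05, and part of this was seen in M0CM as well. In M0CM against D10, 10 of the 17 were higher with a median of 0.64, and in Pol1 against M0CM 7 were. Hk2, which traps glucose in the cell, had 141, 205, 181 and 153 CPM in Pol1, against 30.0, 51.8, 36.8 and 36.3 CPM in D10 (2.14 ± 0.09, adjusted p = 3.95e-10), and averaged 53.0 CPM in M0CM. Pfkp, a phosphofructokinase, had 130, 165, 123 and 115 CPM in Pol1, against 28.5, 37.7, 30.2 and 32.9 CPM in D10 (2.04 ± 0.13, adjusted p = 2.33e-08), and averaged 37.4 CPM in M0CM. These enzymes stood above both other media, with fold changes of 1.67 and 1.82 against M0CM. Ldha (lactate dehydrogenase) and Slc16a3, which exports lactate, did not. Ldha averaged 993 ± 257 CPM in Pol1, 1152 CPM in M0CM and 580 ± 111 CPM in D10 (0.76 ± 0.19, adjusted p = 0.00704 against D10), a call that narrowly failed without rat 4 (adjusted p = 0.0526) or rat 8 (adjusted p = 0.0508). Slc16a3 averaged 114 ± 46.1 CPM in Pol1, 154 CPM in M0CM and 52.0 ± 21.9 CPM in D10 (1.12 ± 0.22, adjusted p = 0.00122 against D10).

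**Figure D4:**
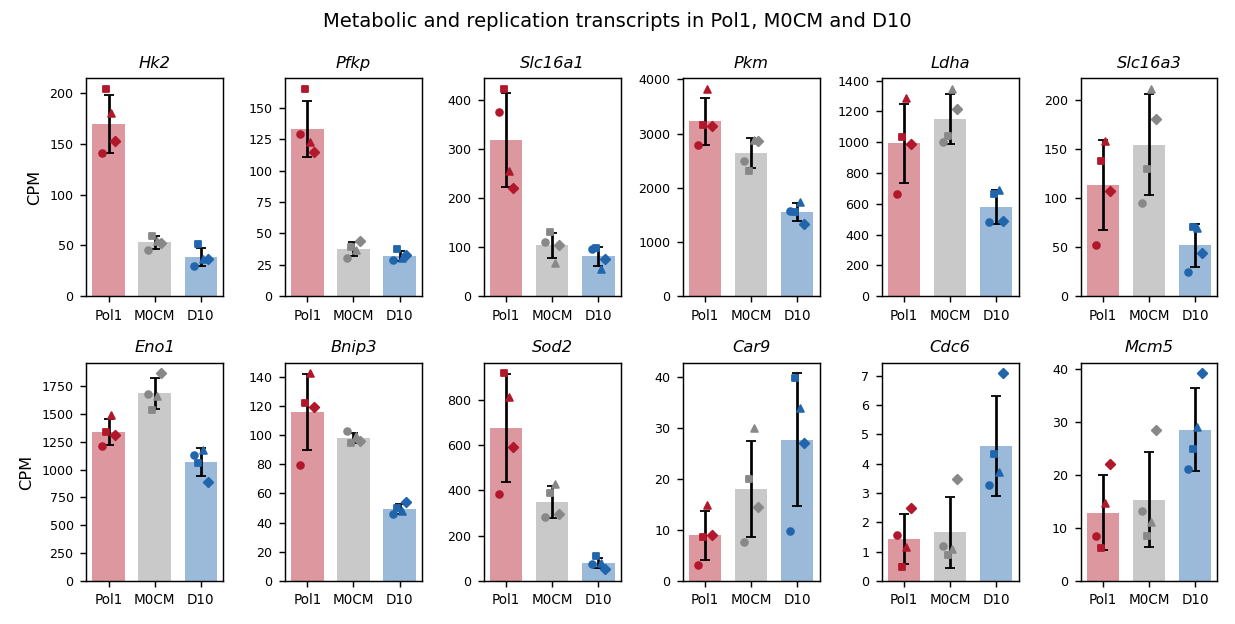
Level of 12 metabolic and replication transcripts in CPM, with bars at the mean of 4 rats, error bars at 1 SD and points for the libraries, in Pol1 (red), M0CM (grey) and D10 (blue). For Hk2 the Pol1 mean of 170 CPM stands above 53.0 CPM in M0CM and 38.7 CPM in D10, whereas for Slc16a3 the M0CM mean of 154 CPM is above the Pol1 mean of 114 CPM.

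Of 22 tested genes of the HIF pathway 13 were higher and 1 lower in Pol1 against D10. In M0CM against D10 5 were higher, and in Pol1 against M0CM 3 were. That last count was close to the share over all genes tested, 13.4%. Bnip3, a mitophagy receptor induced by hypoxia, had 79.8, 122, 142 and 120 CPM in Pol1, against 46.0, 50.1, 47.7 and 54.3 CPM in D10 (1.22 ± 0.14, adjusted p = 1.78e-05), and averaged 98.3 CPM in M0CM, where the difference from Pol1 was 0.22 (adjusted p = 0.275). Car9, a carbonic anhydrase that is a classical HIF target, moved against the list, with 3.12, 8.65, 14.9 and 8.95 CPM in Pol1, against 9.70, 39.7, 34.0 and 27.1 CPM in D10 (-1.68 ± 0.23, adjusted p = 9.20e-05, and adjusted p = 0.0584 without the block). Of 37 nuclear genes of oxidative phosphorylation, Cox5a was higher (0.45) and Ndufs1 lower (-0.21), both shares far below those over all genes. Neither passed without the block (adjusted p = 0.103 and 0.0610). Leaving out rat 3, rat 4 or rat 8 removed the rise of Cox5a (adjusted p = 0.0768, 0.0780 and 0.136), and leaving out rat 2, rat 4 or rat 8 the fall of Ndufs1 (adjusted p = 0.108, 0.0756 and 0.159). Without rat 3, 3 members were lower.

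Of 23 tested genes of cholesterol synthesis and uptake, 1 was lower and none higher. None was lower without the block or without rat 3 or rat 4, and 2 were without rat 2. Hmgcs1, the enzyme at the entry of the pathway, had 135, 156, 153 and 102 CPM in Pol1, against 142, 218, 168 and 99.2 CPM in D10 (-0.16 ± 0.30, adjusted p = 0.723). Lss, lanosterol synthase, named by KEGG alone, rose by 0.89 ± 0.15 (adjusted p = 0.000392). In the list of cholesterol efflux and oxysterols 8 of 13 tested genes were higher and 1, Npc1, was lower, and 5 were higher without the block and without rat 2, rat 3 or rat 8. Cyp27a1, which makes 27-hydroxycholesterol, had 51.3, 56.9, 41.7 and 45.2 CPM in Pol1, against 8.07, 3.23, 4.76 and 5.94 CPM in D10 (3.17 ± 0.20, adjusted p = 3.19e-08).

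Iron handling and acute phase genes were mostly higher, 13 of 19 tested against 2 lower, with 8 and 2 without the block. Slc11a1, an iron transporter of phagosomes, had 4.21, 5.89, 7.07 and 5.33 CPM in Pol1, against 0.335, 0.188, 0.282 and 0.159 CPM in D10 (4.54 ± 0.34, adjusted p = 1.79e-07). Lcn2, which takes up bacterial siderophores, had 1.38, 18.3, 6.01 and 0.284 CPM in Pol1, against 0.167, 1.13, 0.438 and 0.0318 CPM in D10 (3.63 ± 0.57, adjusted p = 2.29e-04), and averaged 4.25 CPM in M0CM, against which it did not pass (0.39, adjusted p = 0.553). Rat 3 was highest and rat 8 lowest in both media, so the groups overlapped. Ptx3, a soluble pattern receptor, had 34.6, 543, 84.7 and 24.1 CPM in Pol1, against 5.35, 28.4, 6.17 and 3.14 CPM in D10 (3.53 ± 0.50, adjusted p = 9.79e-05), again with rat 3 highest. Tfrc, the transferrin receptor, had 22.5, 12.2, 15.1 and 16.5 CPM in Pol1, against 83.0, 63.1, 37.3 and 41.4 CPM in D10 (-1.74 ± 0.24, adjusted p = 7.30e-05), and the other fall was Aco1, an iron-sensing RNA-binding protein, at -0.46.

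Among 30 tested genes of the NRF2, glutathione and superoxide list 10 were higher and 4 lower, with 6 and 1 without the block. Sod2, the mitochondrial superoxide dismutase, had 385, 917, 811 and 590 CPM in Pol1, against 75.9, 108, 77.9 and 50.8 CPM in D10 (3.10 ± 0.21, adjusted p = 5.94e-08), and averaged 348 CPM in M0CM. It was thus higher in both media that were set against D10, in M0CM by 2.17 (adjusted p = 0.000381). Sod2 was also called higher in Pol1 against M0CM (0.93, adjusted p = 0.00246). Txn1 (thioredoxin) rose by 1.46 ± 0.16 (adjusted p = 1.16e-05), while the falls were Nqo1 (-0.54), Gss (-0.42), Gstp1 (-0.34) and Nox4, an oxidase that makes hydrogen peroxide, at -1.49 ± 0.24 (adjusted p = 0.000266, and adjusted p = 0.155 without the block). Without the block Nqo1 (adjusted p = 0.315) and Gstp1 (adjusted p = 0.360) were also lost. Both were lost without rat 2 (adjusted p = 0.159 and 0.166) and without rat 8 (adjusted p = 0.135 and 0.0765), Nqo1 without rat 3 (adjusted p = 0.0688) and Gstp1 without rat 4 (adjusted p = 0.178).

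The unfolded protein and integrated stress response list gave 11 falls and 1 rise among 30 tested members, and 6 and 1 without the block. Hspa5 (BiP), the main chaperone of the endoplasmic reticulum, had 535, 468, 612 and 540 CPM in Pol1, against 773, 756, 857 and 771 CPM in D10 (-0.56 ± 0.14, adjusted p = 0.00737). Chac1, which degrades glutathione and is induced by Atf4, had 23.2, 14.2, 22.6 and 24.1 CPM in Pol1, against 51.9, 35.0, 51.0 and 47.6 CPM in D10 (-1.15 ± 0.16, adjusted p = 6.57e-05). The one rise was the stress factor Atf3, with 11.1, 10.2, 11.2 and 14.4 CPM in Pol1, against 2.97, 2.78, 2.85 and 4.64 CPM in D10 (1.85 ± 0.17, adjusted p = 1.28e-06). For all 3 genes the groups did not overlap.

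Immediate early genes, which answer growth factors and activity within minutes, were lower in 11 of 20 cases and higher in 3, after 24 h. Dusp1, a phosphatase of MAP kinases, had 66.1, 60.6, 94.5 and 82.1 CPM in Pol1, against 111, 170, 280 and 253 CPM in D10 (-1.38 ± 0.15, adjusted p = 7.62e-06). The rises counted were Maff (1.23), Klf4 (0.97) and Jun (0.94 ± 0.21, adjusted p = 0.00340). Fosl2, named by KEGG alone and so not counted, rose by 0.91 ± 0.11 (adjusted p = 2.66e-05). Osteogenic, adipogenic and chondrogenic genes gave 8 falls and 3 rises among 19 tested, and 2 of each without the block. Lpl, a lipase of adipocytes, had 12.8, 4.17, 3.21 and 8.99 CPM in Pol1, against 58.9, 19.2, 17.2 and 40.2 CPM in D10 (-2.24 ± 0.18, adjusted p = 5.32e-07), and Pparg, the master factor of adipogenesis, fell by 1.94 ± 0.29 (adjusted p = 1.38e-04). The rises counted were Cebpd (1.39 ± 0.35), an early adipogenic factor that also answers inflammatory signals, Sox5 (1.02) and Plin2 (0.92). Without rat 2 there were 5. Cebpb, named by KEGG alone and so not counted, rose by 1.27 ± 0.15 (adjusted p = 2.42e-05), with no overlap. Cebpd averaged 77.6 CPM in Pol1, 71.7 CPM in M0CM and 29.5 CPM in D10, and did not pass in Pol1 against M0CM (0.03, adjusted p = 0.961). Sox5 did not pass without the block (adjusted p = 0.453), without rat 4 (adjusted p = 0.0645) or without rat 8 (adjusted p = 0.0763).

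The largest rises and falls were also ranked without regard to the lists, among named genes that moved the same way in each rat and averaged at least 5 CPM in their higher medium. The 10 largest rises were Gbp1, Batf2, Ubd, Tnfsf10, Apol11a, Sectm1b, RGD1305184, Cxcl10, Cxcl9 and Acod1. Apol11a, an apolipoprotein L named by KEGG alone, had 138, 194, 169 and 136 CPM in Pol1, against 0.125, 0, 0.0313 and 0 CPM in D10 (11.97 ± 0.39, adjusted p = 1.85e-09). Sectm1b had 2.92, 14.3, 17.9 and 16.2 CPM in Pol1 and no count in D10, at least 500-fold higher, and RGD1305184 averaged 342 CPM in Pol1 and 0.157 CPM in D10. The 10 largest falls were Prima1, Rtn4rl1, Acta1, Myh11, Inpp4b, Tmem204, Susd5, Bves, Mcam and Tgfb3. Prima1, which anchors acetylcholinesterase in the membrane, had 0.0811, 0.0718, 0.273 and 1.17 CPM in Pol1, against 0.585, 3.27, 77.4 and 58.1 CPM in D10 (-6.31 ± 0.50, adjusted p = 3.80e-07). Its D10 level rested on rats 4 and 8, although each rat was lower in Pol1. Rtn4rl1, a homologue of the Nogo receptor, had 0.284, 0.539, 0.512 and 0.604 CPM in Pol1, against 4.52, 14.4, 12.6 and 12.4 CPM in D10 (-4.47 ± 0.25, adjusted p = 8.58e-09). Acta1, the skeletal muscle actin whose CArG box is shown above, had 0.973, 1.44, 2.02 and 0.959 CPM in Pol1, against 9.45, 34.9, 33.2 and 28.0 CPM in D10 (-4.23 ± 0.28, adjusted p = 5.18e-08). Susd5 fell by 3.58 ± 0.15 (adjusted p = 3.78e-10 with the block and 0.0899 without). It had 1.78, 0.862, 5.50 and 24.5 CPM in Pol1, against 19.2, 12.9, 82.6 and 220 CPM in D10, lower in each rat while the groups overlapped.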

How the data were processed

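RNA was sequenced from MSC cultures of 4 rats in 4 media, and per the labels and the study's methods the reads were aligned to Rnor 6.0 with TopHat2 2.0.12 on Bowtie2 2.2.3 and counted per gene with HTSeq 0.6.1. The strand setting of the counting is not given in the sources used here, so reads of overlapping genes may be shared. The deposited table held whole-number read counts per gene and library as the authors' counting gave them. It also held FPKM, which the authors computed as counts scaled by gene length and library total, and which was used here only to rank levels. Columns of the authors' own comparisons (fold changes and p-values) and 22 condition mean or normalized columns were not used.

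Of 26689 genes, 18562 carried a name, 370 more were named from the deposited KEGG annotation, 7757 had none and 25 names had been turned into dates. List counts use the name column only. Acta2 was found under no name. Some genes that the rule names are not reported here. Raw counts were tested with edgeR 4.0.16 (R 4.3.3), with TMM factors, the quasi-likelihood F-test, Benjamini-Hochberg adjustment and all 16 libraries in 1 fit of medium plus rat. The pairing comes from the animal number in the labels: deviations of Pol1 and D10 libraries from their group means correlated at 0.518 to 0.634 for the same rat (4 pairs) and -0.428 to 0.205 for different rats. CPM are counts per 1e6 counts in the tested genes, with each library's size scaled by its TMM factor. Totals per library lay between 23291125 and 31992709 counts, and no library's values were identical to another's. A group at 0 was set to 3 counts over the group for a lower bound, ratios on 1 to 3 counts have exact 95% intervals, and both cover counting error only.

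Genes were named by a rule: the 10 largest rises and falls, the signal chain of the agents, the members of smallest p in each list, members at 0 in 1 medium and cell type markers. Other named genes were chosen after their values were seen. The members and lists were chosen with earlier results of these data known. Promoters came from RefSeq for GRCr8 and were searched on both strands. Alternatives were a fit without the rat, the 8 libraries alone, other scalings and count filters, DESeq2 1.42.0, a minimum fold, M0CM as reference and each rat left out.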

Additional observations from a re-analysis of the deposited data

Results flagged for a closer look

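In 384 groups of 4 libraries, those of Pol1 and of D10 for the genes named above, the library farthest from the others was tested by Dixon's ratio at the 95% level. Its critical value was exceeded in 25 groups, and chance alone exceeds it in about 1 of 20.

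Rat 3 accounted for several of the high values. Ptx3 stood at 543 CPM in Pol1 (others 24.1 to 84.7) and 28.4 CPM in D10 (others 3.14 to 6.17), and Cd40 at 9.05 CPM in Pol1 (others 1.92 to 2.43) and 2.48 CPM in D10 (others 0.222 to 0.532). RT1-Ba stood at 7.51 CPM in Pol1 (others 0.426 to 1.34), Ifngr1 at 96.4 CPM in Pol1 (others 57.2 to 60.3) and Oas2 at 0.826 CPM in Pol1 (others 0.405 to 0.444).

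Other high values in Pol1 were Ido1 at 21.4 CPM (others 4.13 to 7.002) and Fas at 23.5 CPM (others 20.9 to 21.1). In D10 they were Cx3cl1 at 31.9 CPM in rat 4 (others 2.29 to 3.72), Vegfa at 317 CPM (others 169 to 183), Thy1 at 1730 CPM (others 1138 to 1212), Hspa5 at 857 CPM (others 756 to 773), Psmb8 at 27.4 CPM (others 8.75 to 11.9), Tnfaip3 at 6.23 CPM (others 2.72 to 2.89), Bcl2 at 6.73 CPM (others 3.55 to 3.88) and Atf3 at 4.64 CPM (others 2.78 to 2.97). Gbp1 at 0.0418 CPM and Ido1 at 0.0313 CPM in D10 rested on 1 count each, with the others at 0.

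Low values in Pol1 were Tnf at 0 CPM (others 0.239 to 0.287), Chac1 at 14.2 CPM (others 22.6 to 24.1), Ifi47 at 549.9 CPM (others 688 to 713), Aco1 at 68.9 CPM (others 77.2 to 77.8) and Cd47 at 86.0 CPM (others 101 to 103). In D10, Ndufs1 was low at 60.01 CPM (others 65.4 to 66.3).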

How the results depend on the processing

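Of 175 named genes called, 154 kept direction and call when any 1 rat was left out, and 111 under each of the 13 alternatives. The fit without the rat as a block called 1431 genes higher and 1097 lower, and 39 of the named genes lost their call. All 1431 were among the 2203 and 1096 of the 1097 among the 2192. It changed no other call of a named gene. A minimum log2 fold change of 1 left 930 genes higher, 625 lower and 286 list members called, by its construction. Leaving out 1 rat at a time gave 1710 to 1856 genes higher, 1556 to 1721 lower and 407 to 431 list members called, with fewer libraries. DESeq2 called 2328 and 2449 genes. Scaling by library totals moved the share of higher genes among the called ones to 59.1%, against 50.1%. The median log2 fold change over all genes tested was then 0.05, against -0.01. With M0CM as the reference the log2 fold change changed sign for Cd14 (-0.02), Eno1 (-0.33), Hmgcs1 (0.38), Ldha (-0.23), Nqo1 (0.18), Ptgs2 (-0.17), Slc16a3 (-0.49), Thy1 (0.05) and Vsir (-0.84), none past the threshold, and of these Ldha, Nqo1, Slc16a3 and Vsir had been called against D10. Against M0CM a further 23 named genes kept their direction but lost the call, among them Pdgfra, Sfrp1, Il6, Cebpd, Cxcl12, Lcn2, Col1a1 and Mki67, and 22 of the counts of list members moved by over 1.5 times. Leaving out 1 rat gave -0.23 to 0.44 for Ptgs2, below 0 without rat 3 and rat 4 (-0.06), and -0.05 to 0.02 for Canx, above 0 without rat 8. Canx was at 0.03 with library totals. The cause was not tested. At 25097631 counts in the shallowest Pol1 library, levels of a few counts, as for Tnf, carry wide counting error.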
